A study of Homo sapiens with 12 samples.

Results

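The 51 genes described here encode factors that make ribosomes, most of them resident in the nucleolus. Rows were picked by symbol from a list of ribosome biogenesis and nucleolar genes that was drawn up with earlier results of these data known, and all 51 are among the 14828 genes of the expression table. By role the list holds 7 genes of RNA polymerase I transcription, 3 of the box C/D snoRNP, 4 of the box H/ACA snoRNP, 5 nucleolar scaffold proteins and regulators, 9 of the small-subunit processome, 6 of 40S maturation and export, and 17 of 60S assembly. Gene expression was measured by RNA-seq in 22Rv1, a human prostate carcinoma cell line, to profile cells depleted of CENPA, the histone H3 variant that marks the centromere. Cells of all 3 groups carried a doxycycline-inducible lentiviral vector (pTRIPZ) and received doxycycline at 2 µg/ml for 72 h. The vector encoded a nontargeting shRNA (shNT) or either of the CENPA-directed shRNAs, shCENPA1 and shCENPA2. Each shRNA has 2 libraries, each run in lanes 7 and 8, and the sources used here do not say whether the libraries come from separate cultures. The p-values therefore measure the spread between these libraries, which may be technical. Cells without an shRNA were not analysed here, so a low level under CENPA knockdown and a high level in the shNT cells cannot be told apart.

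Ribosome production starts in the nucleolus, where RNA polymerase I copies the ribosomal DNA into a long precursor RNA. Small nucleolar ribonucleoproteins (snoRNPs) then guide the modification and folding of this precursor, the small-subunit processome cuts out the 18S part, and separate sets of factors assemble the 40S and 60S subunits and hand them to the cytoplasm. The pathway is among the most costly of a growing cell, it responds to MYC, and enlarged nucleoli are a classical feature of prostate carcinoma cells.

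The libraries held 79172294 to 133074655 reads on genes, and single genes of the list held 163 to 95936 reads in a library. PPAN was the lowest, and without it the minimum was 1230 reads. The lanes of 1 library differed by little more than sampling noise (chi-square per gene of 1.24 to 1.31) and were averaged into 1 value. CENPA itself stood at 2.46 and 2.18 log2 RPKM in the shNT libraries, at 0.50 and 0.58 with shCENPA1, and at -0.47 and -0.41 with shCENPA2. All 12 markers of luminal prostate epithelium were listed in the table, although KLK3 (prostate-specific antigen) was low, at -0.48 in both shNT libraries. Of 15 markers of basal, leukocyte, endothelial and fibroblast cells, only COL1A1, DCN and LUM were listed, and they summed to 3.55 to 3.95 RPKM in the shNT and shCENPA1 libraries and to 5.86 to 5.98 RPKM with shCENPA2. The part of these cells in the results was not tested. In bulk RNA, fewer cells of a type and less RNA per cell cannot be told apart.

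Promoter sequences from RefSeq (GRCh38.p14, 250 bases before to 50 bases after a gene's start) were at hand for 42 of the 51 genes. The E-box CACGTG, the letters bound by MYC and related factors and identical on both strands, occurred in 19 of these 42 (45.2%). It occurred in 12.6% of the genes of the expression table that have a promoter sequence, in 8.77% of all genes of the promoter set, and in 28 of 116 (24.1%) of the other ribosome biogenesis genes introduced below. Of the 21 matches, 18 began within 50 bases of a start. The following windows of 30 bases show E-boxes of genes from several steps of the pathway, written 5′ to 3′ on the strand of the gene, with the E-box in capitals.
FBL, chr19:39846356-39846385, minus strand: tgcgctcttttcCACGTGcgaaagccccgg
GNL3, chr3:52686026-52686055, plus strand: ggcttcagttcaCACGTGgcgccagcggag
LYAR, chr4:4290068-4290097, minus strand: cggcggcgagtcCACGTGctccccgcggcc
NOP10, chr15:34343130-34343159, minus strand: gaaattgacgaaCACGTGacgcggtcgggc
UTP20, chr12:101280083-101280112, plus strand: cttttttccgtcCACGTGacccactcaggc
RRP9, chr3:51941892-51941921, minus strand: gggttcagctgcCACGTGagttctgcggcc
NAT10, chr11:34105602-34105631, plus strand: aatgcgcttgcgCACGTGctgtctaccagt
BYSL, chr6:41921515-41921544, plus strand: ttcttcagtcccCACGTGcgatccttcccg
PES1, chr22:30591880-30591909, minus strand: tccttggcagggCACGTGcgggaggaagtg
FBL, GNL3 and LYAR are shown because their mRNAs were lower with shCENPA2, and the other genes because theirs did not pass the test. A second motif, CCGGAAG on either strand, the core bound by ETS-family factors such as GABPA, occurred in 18 of the 42 promoters (42.9%), in 22.1% of the genes of the expression table that have one, and in 12.2% of all genes of the promoter set. It occurred in 50 of 116 (43.1%) of the other ribosome biogenesis genes, about the same share as among the 51. WDR74 and TAF1D carry it upstream of a start, here in capitals.
WDR74, chr11:62839588-62839617, minus strand: gcacacgctgcgCCGGAAGtgtgaactgtc
TAF1D, chr11:93741543-93741572, minus strand: ctcgccttcttcCCGGAAGctaagttgtat
A match is a description of these letters and not evidence of binding.

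Levels of the 51 genes, per length of transcript, spanned a wide range in shNT cells. NOP10, a small core protein of the H/ACA snoRNP, was highest at a mean of 7.25 ± 0.12 log2 RPKM (SD, n = 2). It was followed by the nucleolar proteins NCL (6.88 ± 0.04) and NOLC1 (6.29 ± 0.00). The median gene of the list stood at 3.70, above 74.3% of all genes tested, and 37 of the 51 genes had a mean above 3. UTP15 (2.01 ± 0.06) and PPAN (-0.20 ± 0.05) closed the order. PPAN overlaps P2RY11 on the same strand, and its reads are uncertain for that reason. Another 17 genes of the list, GNL3, TAF1D, HEATR1 and RRN3 among them, overlap a listed gene on the opposite strand. The kit keeps the strand, but whether the counting used it is not given in the sources used here.

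Each CENPA shRNA was set against shNT with limma, with all 6 libraries in one fit and p-values adjusted over the 14624 genes tested, which include all 51. A gene was called at an adjusted p under 0.05. With shCENPA1, 2 of the 51 genes were called lower, POLR1E and WDR74 (3.92%, against 4.45% of all genes tested). None was called higher, against 2.69% of all genes. With shCENPA2, 10 of the 51 were called lower (19.6%, against 10.5% of all genes): POLR1E, TAF1D, FBL, NOP56, NOP58, DKC1, TCOF1, LYAR, GNL3 and WDR74. Of these 10 calls, 5 remained without the first shNT library (POLR1E, WDR74, NOP56, LYAR and GNL3) and 4 without the second (POLR1E, WDR74, NOP56 and LYAR). None was called higher, against 8.05% of all genes. At an unadjusted p under 0.05 limma put 5 of the 51 lower with shCENPA1 (9.80%, all genes 11.4%) and 14 lower with shCENPA2 (27.5%, all genes 17.0%). At the same threshold it put 1 gene of the list, RRP12, higher with shCENPA1 (all genes 10.7%) and 0 higher with shCENPA2 (all genes 15.3%), and voom on the recovered reads likewise called 0 higher at an adjusted p under 0.05. A call and a log2 fold change below -1 were met by POLR1E alone with shCENPA1, where 1.83% of all genes met both, and by POLR1E and WDR74 with shCENPA2, where 4.45% did.

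The median log2 fold change of the 51 genes was -0.03 with shCENPA1, with quartiles of -0.17 and 0.07, beside 0.00 over all genes tested. With shCENPA2 it was -0.15, with quartiles of -0.26 and -0.05, beside 0.01 over all genes tested. Fold changes were below 0 for 32 of the 51 genes with shCENPA1 and for 45 of 51 with shCENPA2, where 49.4% and 48.4% of all genes were below 0. Relative to the shNT mean, the median of the list in the shCENPA1 libraries was -0.06 in the first and 0.02 in the second. In the shCENPA2 libraries it was -0.15 and -0.16. The shNT libraries themselves stood at 0.03 and -0.03. By this median the first shCENPA1 library thus fell below both shNT libraries and the second fell within their range. Both shCENPA2 libraries fell below both shNT libraries. Both libraries lay below both shNT libraries for 16 of 51 genes with shCENPA1 (31.4%, all genes 27.1%) and for 29 of 51 with shCENPA2 (56.9%, all genes 31.0%). They lay above both for 5 genes with shCENPA1 (9.80%, all genes 29.9%) and for 4 with shCENPA2 (7.84%, all genes 31.5%). Both comparisons use the same shNT libraries.

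**Figure D1:**
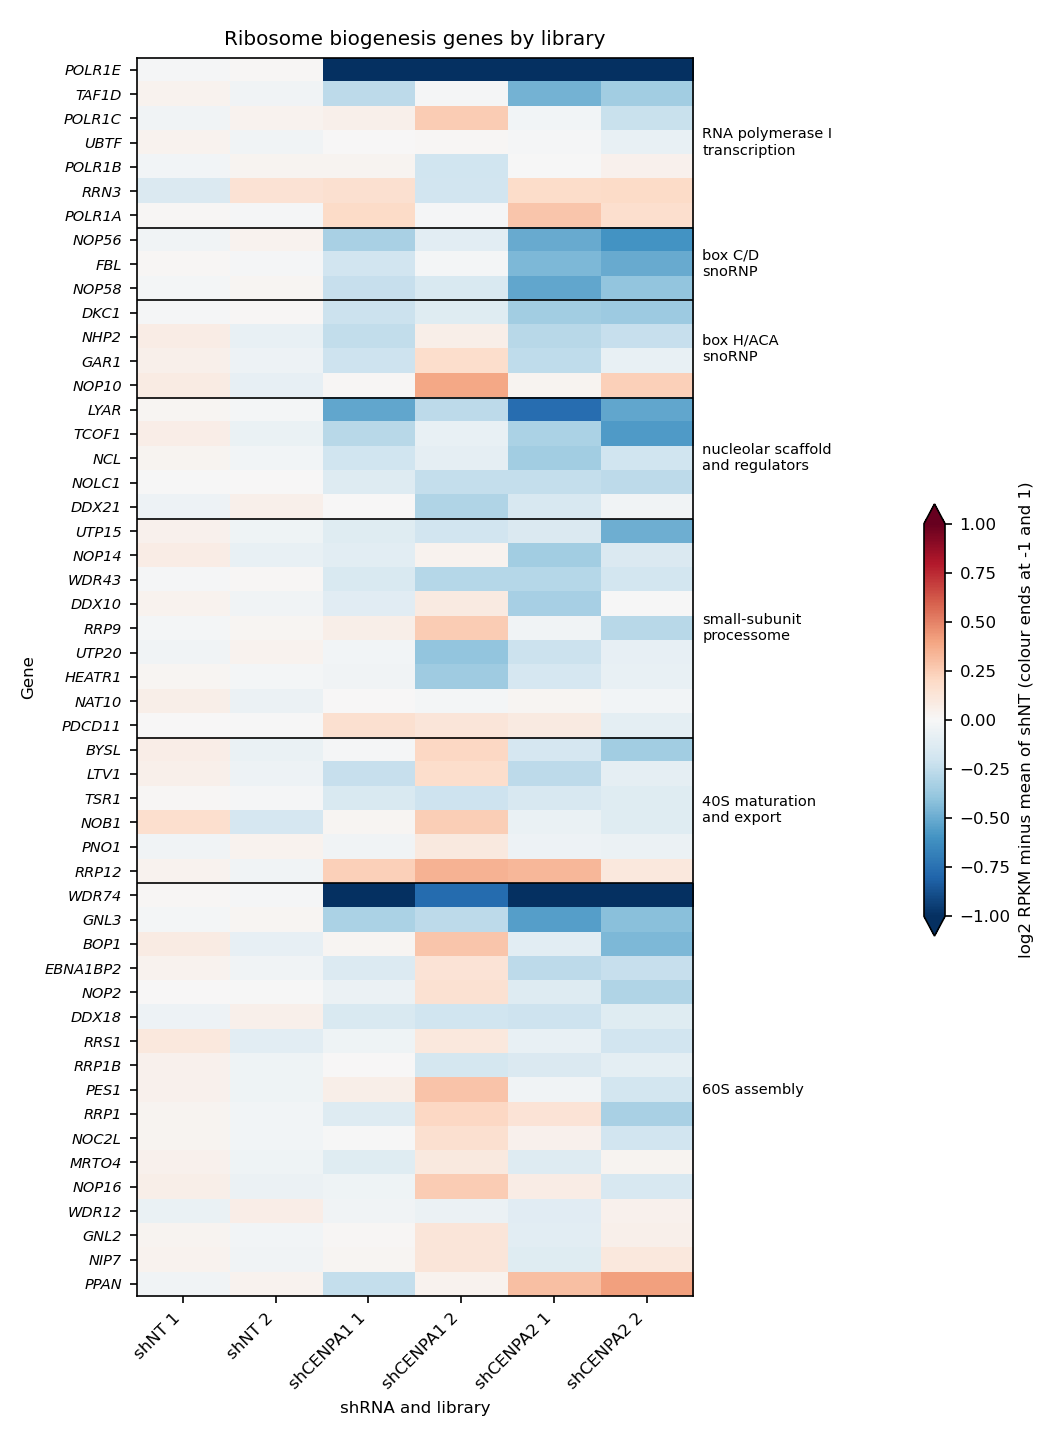
Heat map of the 51 genes (rows, grouped by role and ordered within a role by their change with shCENPA2) in the 6 libraries (columns), coloured by log2 RPKM minus the mean of the shNT libraries, with the colour scale ending at -1 and 1. POLR1E and WDR74 are dark blue in the CENPA knockdown libraries, the box C/D genes are blue with shCENPA2, and most other rows stay pale.

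POLR1E encodes a subunit of RNA polymerase I that, with its partner subunit, helps the enzyme to initiate and elongate. The gene lies on chr9:37485948-37503697, plus strand (GRCh38, GENCODE 44). It stood at 5.38 and 5.41 log2 RPKM in the shNT libraries, at 3.37 and 3.24 with shCENPA1, and at 3.29 and 3.17 with shCENPA2. The 4 knockdown libraries lay close together and far below both shNT libraries. The log2 fold change was -2.09 ± 0.09 (SE, adjusted p = 6.99e-06) with shCENPA1 and -2.17 ± 0.09 (adjusted p = 4.07e-06) with shCENPA2, which left 23.5% and 22.3% of the shNT level. In whole reads this was 11328 and 9035 in the shNT libraries against 2025 to 3039 in the knockdown libraries. The shRNAs differed from each other by -0.08 (adjusted p = 0.783), with a 95% interval that reached from -0.29 to 0.13.

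Of the other 6 RNA polymerase I genes among the 51, TAF1D was called with shCENPA2 and none with shCENPA1. POLR1A, the largest and catalytic subunit, was at 2.56 and 2.54 in shNT, at 2.75 and 2.54 with shCENPA1, and at 2.83 and 2.72 with shCENPA2. POLR1B, the second largest subunit, was at 2.94 and 3.00 in shNT, 3.00 and 2.77 with shCENPA1, and 2.97 and 3.01 with shCENPA2. Neither was called, and the 95% intervals with shCENPA2 were -0.04 to 0.48 for POLR1A and -0.23 to 0.27 for POLR1B. POLR1C, which RNA polymerases I and III share, changed by 0.15 with shCENPA1 and by -0.12 with shCENPA2, not called. In shNT cells POLR1E stood well above POLR1A, POLR1B and POLR1C per length of transcript (5.40 against 2.55, 2.97 and 2.94 on average), and in the knockdown cells it stood at 3.31 and 3.23.

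UBTF, which binds ribosomal DNA along its length and keeps it open, was at 4.91 and 4.85 in shNT, 4.88 and 4.90 with shCENPA1, and 4.87 and 4.81 with shCENPA2. All libraries lay within a narrow band, and the interval of the change was -0.18 to 0.20 with shCENPA1 and -0.23 to 0.15 with shCENPA2. RRN3, the factor that brings the polymerase to its promoter, was at 2.23 and 2.51 in shNT, 2.53 and 2.17 with shCENPA1, and 2.55 and 2.56 with shCENPA2. Its shNT libraries differed from each other more than its group means did. TAF1D, a subunit of the promoter selectivity factor SL1, was at 3.17 and 3.09 in shNT, 2.87 and 3.12 with shCENPA1, and 2.66 and 2.78 with shCENPA2. It was called lower with shCENPA2 by 0.41 ± 0.12 (adjusted p = 0.039). That call was lost with a block for the library number (adjusted p = 0.0526), with median-centred (0.0547) or quantile-normalized libraries (0.0596), and in lane 7 alone (0.0787). It was also lost without any single library of shNT or shCENPA2, where the log2 fold change ran from -0.47 to -0.35.

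**Figure D2:**
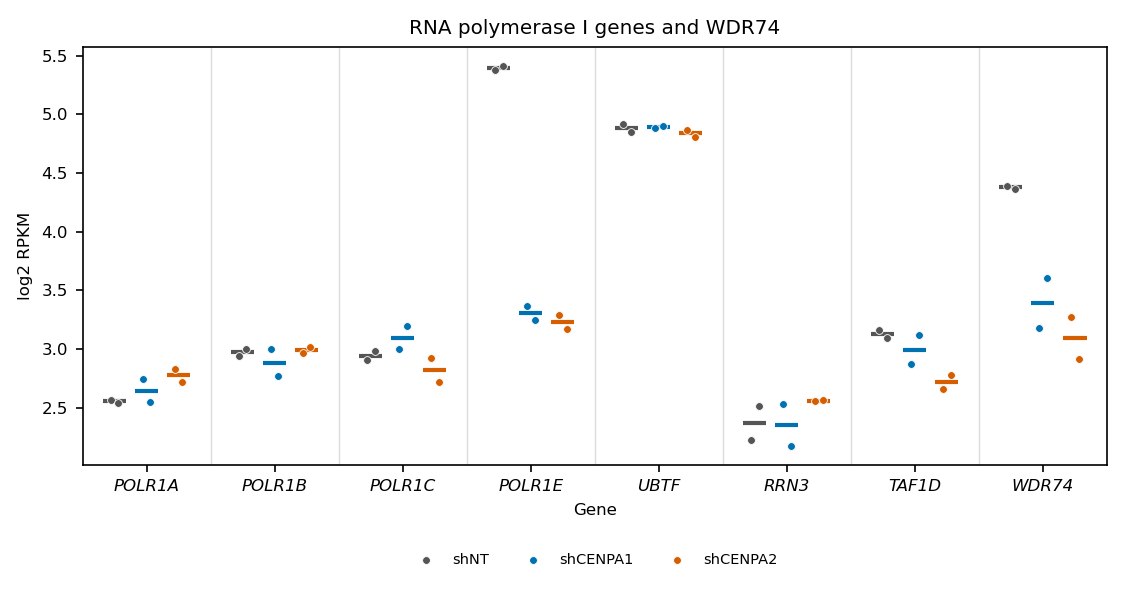
Level of the 7 RNA polymerase I genes and of WDR74 in log2 RPKM (vertical axis), with 1 point per library and a bar at the mean of each shRNA. POLR1E falls from 5.38 and 5.41 to between 3.17 and 3.37 in the 4 knockdown libraries, whereas the points of POLR1B and of UBTF lie close together over all groups.

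WDR74, a nucleolar protein that takes part in the assembly of the 60S subunit, was the other gene called with both shRNAs. It lies on chr11:62832342-62841809, minus strand. Its level was 4.39 and 4.37 in shNT, 3.18 and 3.60 with shCENPA1, and 3.27 and 2.92 with shCENPA2. All 4 knockdown libraries were below both shNT libraries, and the libraries of each knockdown differed from each other more than the shNT libraries did. The log2 fold change was -0.98 ± 0.16 (adjusted p = 0.00503) with shCENPA1 and -1.28 ± 0.16 (adjusted p = 0.000525) with shCENPA2, or 50.6% and 41.1% of the shNT level. Without the first shCENPA1 library the change with shCENPA1 was -0.77, and the call was lost (adjusted p = 0.0537).

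The genes next to POLR1E and WDR74 were looked at after these values were seen. Around POLR1E, the 4 listed genes on each side were not called with either shRNA. Around WDR74, the 4 listed genes on the side of STX5 were not called either. On the other side SNHG1, SLC3A2 and CHRM1 were lower. SNHG1, a host gene of several box C/D snoRNAs whose start lies 14.1 kb from that of WDR74, was at 4.12 and 4.42 in shNT, 3.58 and 3.95 with shCENPA1, and 3.41 and 3.27 with shCENPA2. It was called with shCENPA2 (-0.93 ± 0.14, adjusted p = 0.00212) and not with shCENPA1 (-0.51 ± 0.14, adjusted p = 0.0701). SLC3A2, the heavy chain of several amino acid transporters, was called with both (-0.58, adjusted p = 0.0146, and -0.39, adjusted p = 0.0384). CHRM1, a muscarinic receptor with 217 to 999 reads per library, was also called with both (-1.18, adjusted p = 0.011, and -1.73, adjusted p = 6e-04). The next gene that could be placed, ATL3, 830.1 kb away, was not called.

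**Figure D3:**
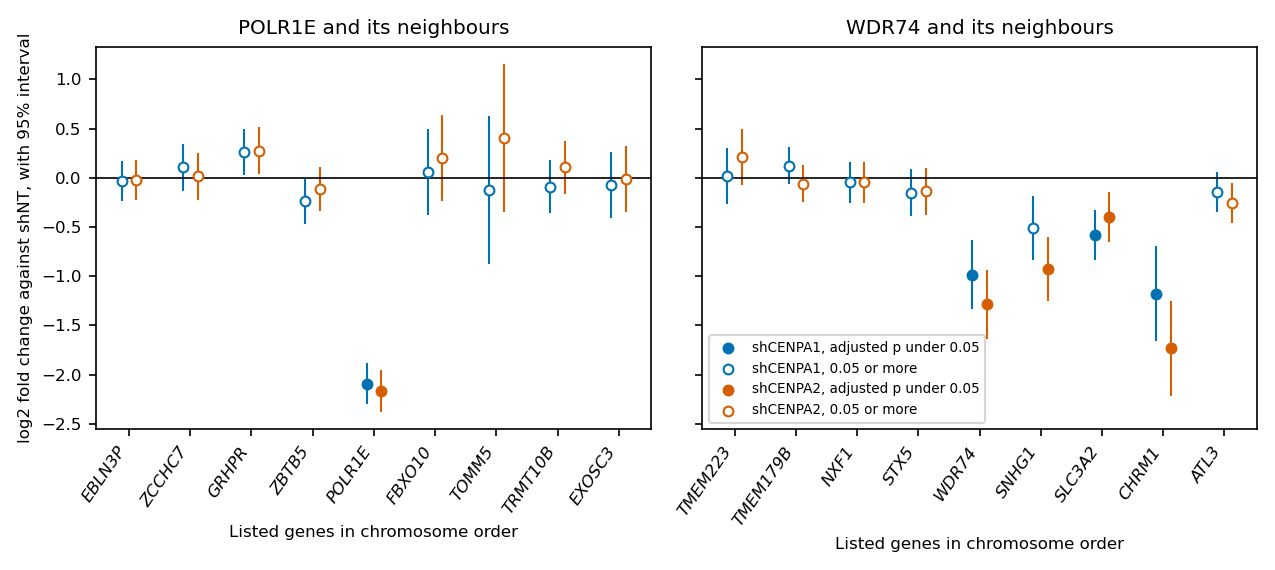
log2 fold change against shNT with its 95% interval (vertical axis) for POLR1E (left) and WDR74 (right). The 4 listed genes on each side that could be placed by symbol are shown in chromosome order, with filled points for an adjusted p under 0.05. POLR1E stands alone among its neighbours, and WDR74 lies next to SNHG1, SLC3A2 and CHRM1, which are lower as well.

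The box C/D snoRNP guides the 2′-O-methylation of ribosomal RNA. Of its protein core, the 3 genes in the list were all called lower with shCENPA2. SNU13, a core protein outside the list that is named after its value was seen, went the other way. It changed by 0.15 with shCENPA1 (adjusted p = 0.394) and by 0.14 with shCENPA2 (adjusted p = 0.341), not called. Its libraries with either CENPA shRNA lay above both shNT libraries. FBL (fibrillarin), the methyltransferase, was at 4.89 and 4.87 in shNT, 4.68 and 4.85 with shCENPA1, and 4.43 and 4.37 with shCENPA2. NOP56 was at 4.84 and 4.90 in shNT, 4.55 and 4.77 with shCENPA1, and 4.37 and 4.27 with shCENPA2. NOP58, the paired scaffold of NOP56, was at 4.97 and 5.01 in shNT, 4.76 and 4.84 with shCENPA1, and 4.47 and 4.60 with shCENPA2. For each of FBL, NOP56 and NOP58 the shCENPA1 libraries lay between those of shNT and those of shCENPA2, with no overlap. With shCENPA2 the log2 fold changes were -0.47 ± 0.09 for FBL (adjusted p = 0.00658), -0.55 ± 0.10 for NOP56 (adjusted p = 0.00469) and -0.46 ± 0.09 for NOP58 (adjusted p = 0.0067). With shCENPA1 they were -0.11, -0.21 and -0.19 and were not called (adjusted p = 0.539, 0.25 and 0.24). The calls of FBL and NOP58 with shCENPA2 were lost without either shNT library (adjusted p = 0.0549 to 0.0802), and that of NOP56 was not.

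The box H/ACA snoRNP, which turns uridines of ribosomal RNA into pseudouridines, gave 1 call among its 4 proteins. DKC1 (dyskerin), the enzyme, on the X chromosome, was at 4.74 and 4.76 in shNT, 4.53 and 4.62 with shCENPA1, and 4.40 and 4.38 with shCENPA2. Its change was -0.17 ± 0.08 (adjusted p = 0.281) with shCENPA1 and -0.36 ± 0.08 (adjusted p = 0.0174) with shCENPA2, and the latter call was lost without either shNT library (adjusted p = 0.142 and 0.18). GAR1 and NHP2 were not called, at -0.17 and -0.25 with shCENPA2. NOP10 had values on the other side, at 7.34 and 7.17 in shNT, 7.26 and 7.64 with shCENPA1, and 7.28 and 7.49 with shCENPA2, and its groups overlapped.

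**Figure D4:**
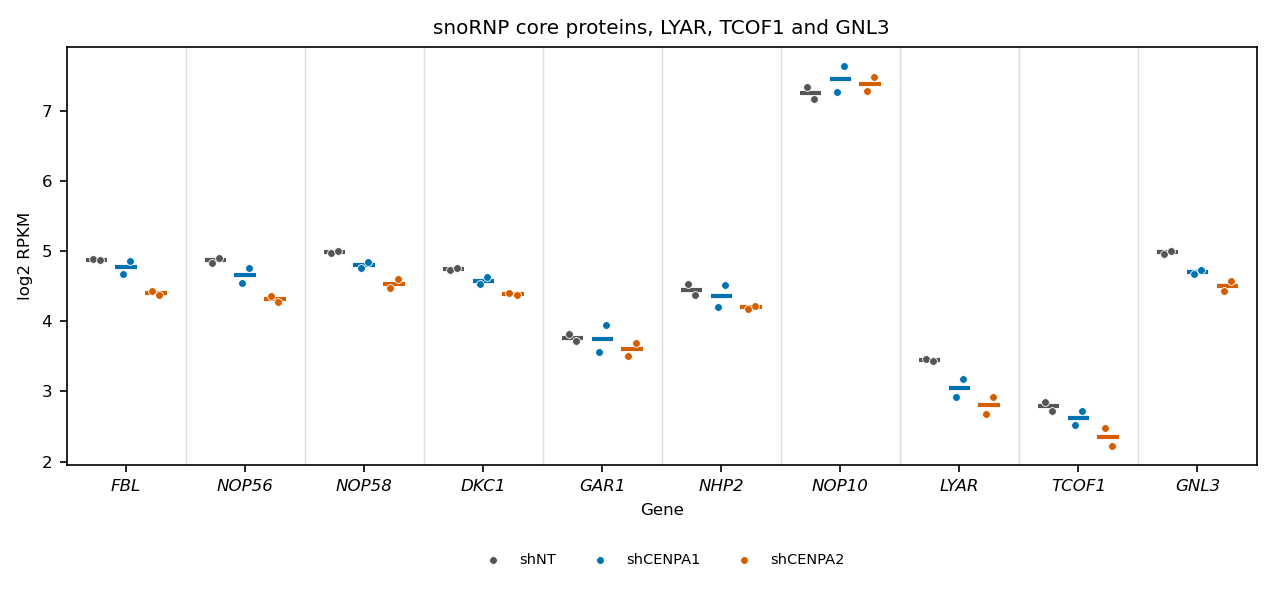
Level of the box C/D proteins (FBL, NOP56, NOP58), the box H/ACA proteins (DKC1, GAR1, NHP2, NOP10) and of LYAR, TCOF1 and GNL3 in log2 RPKM (vertical axis), with 1 point per library and a bar at the mean of each shRNA. For FBL, NOP56, NOP58 and DKC1 the shCENPA2 points lie lowest and the shCENPA1 points between them and shNT, whereas the points of NOP10 overlap between groups.

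Among the nucleolar scaffold proteins and regulators, LYAR and TCOF1 were called lower with shCENPA2. LYAR, a nucleolar zinc-finger protein known from cell growth, was at 3.46 and 3.43 in shNT, 2.93 and 3.18 with shCENPA1, and 2.68 and 2.92 with shCENPA2. Its change was -0.39 ± 0.12 with shCENPA1 (adjusted p = 0.1) and -0.64 ± 0.12 with shCENPA2 (adjusted p = 0.00675). TCOF1 (treacle), which links ribosomal DNA transcription to the processing of its RNA, was at 2.85 and 2.73 in shNT, 2.52 and 2.71 with shCENPA1, and 2.48 and 2.22 with shCENPA2, a change of -0.44 ± 0.13 (adjusted p = 0.0431) with shCENPA2. The TCOF1 call was lost without any single library other than the first of shCENPA2. It was also lost with a block for the library number, with quantile-normalized libraries, with only the groups compared, and in lane 7 alone. NCL (nucleolin), among the most abundant nucleolar proteins, was at 6.91 and 6.86 in shNT, 6.68 and 6.80 with shCENPA1, and 6.54 and 6.69 with shCENPA2. NOLC1, a scaffold that binds both kinds of snoRNP, was at 6.29 and 6.29 in shNT, 6.16 and 6.05 with shCENPA1, and 6.05 and 6.03 with shCENPA2. For NCL and NOLC1 every knockdown library was below both shNT libraries, by small amounts that were not called (adjusted p with shCENPA2 of 0.0853 and 0.0776). DDX21, an RNA helicase, was not called either (-0.15 and -0.10).

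None of the 9 genes of the small-subunit processome was called with either shRNA. With shCENPA2 their fold changes ran from -0.32 (UTP15) to 0.00 (PDCD11), with a median of -0.16, and with shCENPA1 from -0.22 to 0.16, with a median of -0.04. UTP20, a large repeat protein of the processome, was at 2.46 and 2.53 in shNT, 2.47 and 2.10 with shCENPA1, and 2.28 and 2.41 with shCENPA2. HEATR1, a subunit that also supports RNA polymerase I transcription, was at 2.70 and 2.67 in shNT, 2.65 and 2.33 with shCENPA1, and 2.51 and 2.61 with shCENPA2. For both, the lowest value was that of the second shCENPA1 library. NAT10, the acetyltransferase of 18S rRNA, changed by -0.01 with shCENPA1 (95% interval -0.22 to 0.20) and by 0.00 with shCENPA2 (-0.21 to 0.20).

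The 6 genes of 40S maturation and export were not called. NOB1, the nuclease that makes the final cut of 18S rRNA, was at 4.87 and 4.54 in shNT, 4.73 and 4.95 with shCENPA1, and 4.64 and 4.58 with shCENPA2, so that its shNT libraries spanned both shCENPA2 libraries. BYSL (bystin) was at 3.48 and 3.35 in shNT, 3.40 and 3.61 with shCENPA1, and 3.24 and 3.06 with shCENPA2. RRP12, an export factor, was at 3.09 and 3.02 in shNT, 3.29 and 3.41 with shCENPA1, and 3.39 and 3.16 with shCENPA2. RRP12 was the gene of the list with the highest fold change with shCENPA1 (0.29, adjusted p = 0.158), and all of its knockdown libraries were above both shNT libraries. PNO1, LTV1 and TSR1 changed by -0.18 to 0.03 with shCENPA1 and by -0.17 to -0.05 with shCENPA2.

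The 17 genes of 60S assembly included WDR74 and GNL3 as the called ones. GNL3 (nucleostemin), a nucleolar GTPase of proliferating and stem cells, was at 4.96 and 5.01 in shNT, 4.67 and 4.72 with shCENPA1, and 4.44 and 4.57 with shCENPA2. Its change was -0.29 ± 0.09 with shCENPA1 (adjusted p = 0.0876) and -0.48 ± 0.09 with shCENPA2 (adjusted p = 0.00497), with the latter call lost without the second shNT library (adjusted p = 0.0654). The levels of GNL3 formed 3 separate steps from shNT over shCENPA1 to shCENPA2. PES1 and BOP1, which form the PeBoW complex with WDR12, were higher in mean with shCENPA1 and lower in mean with shCENPA2, none of these called. PES1 was at 3.83 and 3.75 in shNT, 3.85 and 4.07 with shCENPA1, and 3.75 and 3.61 with shCENPA2. BOP1 was at 3.22 and 3.06 in shNT, 3.16 and 3.41 with shCENPA1, and 3.03 and 2.70 with shCENPA2. NOP2, which methylates a cytosine of the large rRNA, was at 4.17 and 4.15 in shNT, 4.10 and 4.31 with shCENPA1, and 4.03 and 3.86 with shCENPA2. PPAN had the highest fold change with shCENPA2 (0.36, adjusted p = 0.236), from -0.23 and -0.16 in shNT and -0.44 and -0.17 with shCENPA1 to 0.10 and 0.21 with shCENPA2. Without WDR74, GNL3 and PPAN, the remaining 14 genes of 60S assembly changed by -0.18 to 0.17 with shCENPA1 and by -0.28 to -0.01 with shCENPA2.

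**Figure D5:**
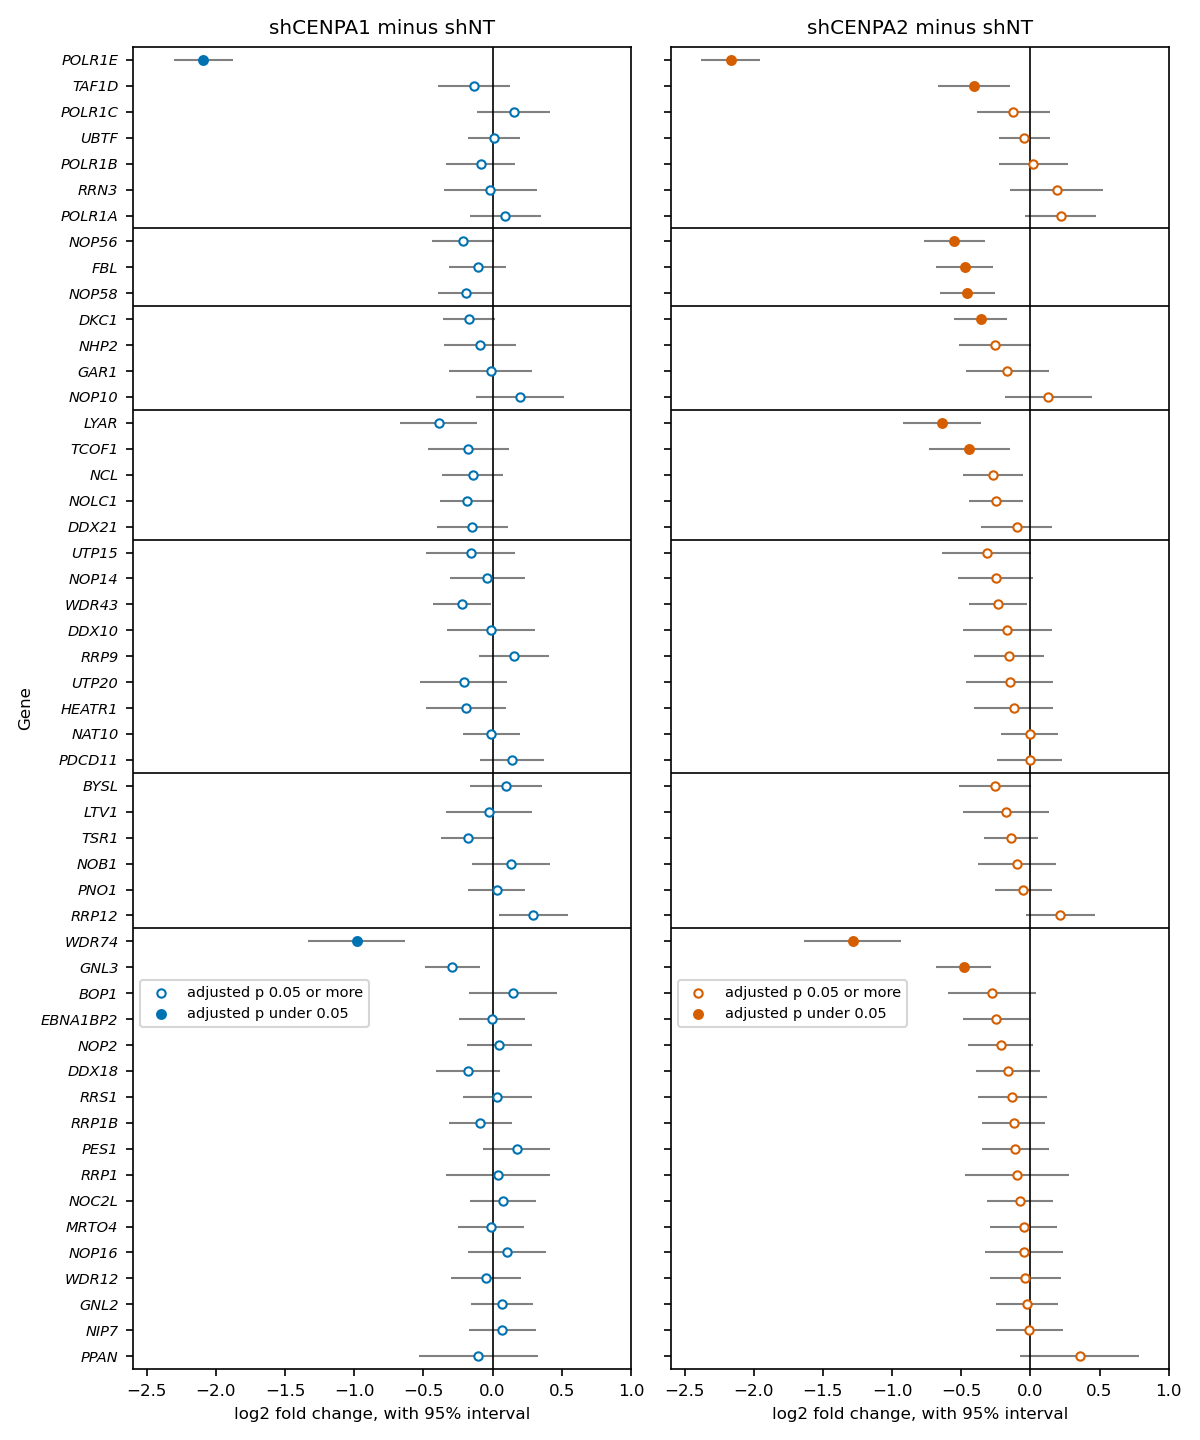
log2 fold change against shNT (horizontal axis) with its 95% interval for the 51 genes, grouped by role and in the same order for shCENPA1 (left) and shCENPA2 (right). Filled points mark an adjusted p under 0.05, which 2 genes reach with shCENPA1 and 10 with shCENPA2, all of them below 0.

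Set directly against each other, the CENPA shRNAs gave no call among the 51 genes. Limma called 0 lower with shCENPA2 (all genes 1.03%) and 0 higher (all genes 0.39%), and the smallest adjusted p was 0.106, for FBL. Voom on the recovered reads likewise called none. At an unadjusted p under 0.05, 11 of the 51 were lower with shCENPA2 than with shCENPA1 (all genes 7.84%) and 1, PPAN, was higher (all genes 5.46%). The median difference was -0.15 (all genes -0.003), and 40 of the 51 genes were below 0 (78.4%, all genes 50.65%). Of the 143 other ribosome biogenesis genes described below, 111 were below 0 (77.6%), with a median of -0.08. The lowest differences were -0.42 for BOP1, -0.37 for FBL and -0.35 for BYSL, and the highest was 0.46 for PPAN. More of these genes were called against shNT with shCENPA2 than with shCENPA1, but no single gene passed the test between the shRNAs. The second shCENPA1 library exceeded the first in 35 of the 51 genes, by a median of 0.14, and without the first shCENPA1 library the median difference was -0.24.

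The E-box was found for 3 of the 7 genes called with shCENPA2 that have a promoter sequence (FBL, GNL3 and LYAR) and for 16 of the 35 not called, and the ETS motif for 3 of 7 and 15 of 35. MYC, whose product binds the E-box, stood at 4.86 and 4.79 in shNT, 4.46 and 4.50 with shCENPA1, and 3.71 and 3.58 with shCENPA2. Its change was -0.35 (adjusted p = 0.0489) with shCENPA1, a call that was lost in 7 of the 17 alternative fits, and -1.18 (adjusted p = 3.7e-05) with shCENPA2. Whether MYC had a part in the levels of the 51 genes was not tested.

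A further 143 genes of ribosome biogenesis that are not among the 51 were taken from a list written for this comparison. With shCENPA1, limma called 0 of 143 at an adjusted p under 0.05 (all genes 4.45% lower and 2.69% higher), and at an unadjusted p under 0.05 it put 8 lower (5.59%, all genes 11.4%) and 1 higher (0.699%, all genes 10.7%). Voom on the recovered reads called 2. With shCENPA2, 13 of 143 were called lower (9.09%), a share near the 10.5% of all genes, and 0 higher (all genes 8.05%), with 3 higher at an unadjusted p under 0.05 (2.10%, all genes 15.3%). The median fold change was 0.01 with shCENPA1 and -0.07 with shCENPA2. SPATA5, an ATPase that releases a factor from the pre-60S particle in the cytoplasm, was lowest with shCENPA2 (-0.91 ± 0.17, adjusted p = 0.00609), followed by EXOSC9, a subunit of the RNA exosome (-0.59 ± 0.11), and NIFK, a nucleolar partner of the Ki-67 antigen (-0.57 ± 0.11). The called genes nearest to 0 were RSL1D1, TWISTNB (a further RNA polymerase I subunit, also called POLR1F) and POLR2K (shared by RNA polymerases I, II and III), each at -0.32. CD3EAP, the RNA polymerase I subunit that pairs with POLR1E, was also called (-0.43, adjusted p = 0.0244) and is named after its value was seen. NPM1 (nucleophosmin), a major protein of the granular part of the nucleolus, was at 7.55 and 7.42 in shNT, 7.25 and 7.56 with shCENPA1, and 7.02 and 7.12 with shCENPA2, a change of -0.42 (adjusted p = 0.0433) with shCENPA2. That call was lost with the replicate block (adjusted p = 0.0575), with median-centred libraries (0.0687), and without any single library of shNT or shCENPA2 (0.0809 to 0.267). The smallest two-sided p that permuting 2 against 2 libraries can give for any gene is 0.33, so the calls rest on limma's spread over genes.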

How the data were processed

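RNA-seq covered 12 runs of 22Rv1 cells, with 2 libraries for each of the 3 shRNAs and 2 lanes for each library. Per the methods of the study and the processing notes, the authors used Trim Galore for trimming, STAR for alignment to hg38, HTSeq for counting and edgeR, with versions not given in the sources used here. The deposited table holds, for each run and 14828 genes, log2 RPKM, the log2 of reads scaled to gene length and library size, with a small constant included, as the steps between low values show. The constant makes fold changes of genes with few reads smaller.

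Lanes were averaged within each library. Limma 3.58.1 (R 4.3.3) was fitted to the 14624 genes whose mean was not below -3 log2 RPKM, with a trend in the variance, 6 libraries of 3 shRNAs in one fit, no covariate, and Benjamini-Hochberg adjustment over the genes tested. The SE and the 95% intervals are limma's, and a percentage of the shNT level is 2 raised to the log2 fold change. The recovery of reads and the fit were tested on simulated data. For all 14828 genes the deposited values rise in steps of 1 read, which gave back the reads (largest distance from a whole read 2.49e-08), and they gave the depth and the input of voom, an alternative fit. At this depth the spread between the libraries of 1 shRNA (chi-square per gene of 26.5 to 80.1) exceeds counting error, so that precision is set by how many libraries there are. Gene positions are those of GENCODE 44 on GRCh38, the assembly of hg38. All 51 genes matched it by symbol, as did 13068 of the symbols in the table.

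All 51 genes may be named, grouped by role. Values per library are given for 18 genes picked for their role and for those with the 3 lowest and 3 highest fold changes of each comparison, and the others outside the list are CENPA, MYC, NPM1 and the called ones of the further list at its ends. CD3EAP, SNU13, neighbouring genes and hosts of snoRNAs were picked after their values were seen. The 51 genes, the roles and the further list were chosen with earlier results of these data known. Of the 146 genes in that list, 143 were in the table. The alternatives were a block for the replicate number, 0.1 or 1 added to RPKM, no filter on low values or a minimum mean of 0 log2 RPKM, median-centred or quantile-normalized libraries, only the groups compared, each lane alone, voom on the recovered reads, and each library left out.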

Additional observations from a re-analysis of the deposited data

How the results depend on the processing

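Under all 17 alternatives POLR1E stayed called lower with both shRNAs (log2 fold changes from -2.15 to -1.99 with shCENPA1 and from -2.22 to -2.05 with shCENPA2), and so did WDR74, NOP56 and LYAR with shCENPA2. No called gene turned its direction. Of the 51 genes, 2 were called lower with shCENPA1 in all fits but the one without its first library, so that leaving out single libraries gave 1 to 2. With shCENPA2 the 10 calls became 8 to 10 under other settings and 4 to 10 with single libraries left out, 5 without the first and 4 without the second shNT library. These calls were not always of the same genes. Quantile normalization kept 8 of the 10 and added NCL (-0.30, adjusted p = 0.0131), and the fit without the first shCENPA2 library added UTP15 (-0.48). None of the 51 genes was called higher against shNT and none between the shRNAs in any of these fits. Among the 143 other genes, 0 calls with shCENPA1 became 1 with a minimum mean of 0 log2 RPKM, 1 in the fit of only the groups compared, 1 in lane 7 alone, 2 with voom and 0 to 1 with single libraries left out. Their 13 calls with shCENPA2 became 7 with the replicate block and 2 to 13 with single libraries left out, 2 without either shNT library, 6 without the first and 8 without the second shCENPA2 library. The median change of the 51 genes ran from -0.07 to 0.02 with shCENPA1 and from -0.16 to -0.13 with shCENPA2 over the fits without single libraries, and between the shRNAs from -0.24, without the first shCENPA1 library, to -0.089, without the second. The cause of these shifts was not tested, other than that a group left with 1 library is assumed to vary like the other groups.

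With a block for the library number as replicate, 2 of the 51 genes were called lower with shCENPA1 and 8 with shCENPA2, where TAF1D and TCOF1 were lost. The libraries share only that number: the correlations of same-numbered libraries' deviations were -0.06, -0.10 and -0.15, so the fit without the block was kept. With 2 libraries per shRNA, the spread between libraries, not depth, limits which changes could be called.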

Other observations

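Many snoRNAs sit in introns of host genes of their own, of which 19 (GAS5 and genes named SNHG) are listed in the table. With shCENPA2, 2 of these (10.5%, the share of all genes tested) were called lower, SNHG1, which lies next to WDR74, and SNHG19 (-0.35 ± 0.08, adjusted p = 0.0177). None was called with shCENPA1. Fold changes of the 19 were below 0 for 13 with shCENPA1 and for 15 with shCENPA2, with medians of -0.10 and -0.28, where 49.4% and 48.4% of all genes were below 0. SNHG19 also differed between the shRNAs (-0.41, adjusted p = 0.0493). These are values of the spliced host transcripts, and snoRNAs themselves were not measured here. The genes were picked by name after the data were seen.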
